A study of Mus musculus with 83 samples.

Results

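The genes described here encode the subunits of Mediator. They were taken by name from the RNA tables of a series on brown fat cell differentiation: every symbol made of Med and digits with an optional l, plus Cdk8, Cdk19 and Ccnc. The rule gave 33 genes. The culture tables hold 32 of them among 11144 genes, the tissue table matched 32 by RefSeq accession among 29082 transcripts, and 31 are in both. Med12l has a value in the tissue alone and Med6 in culture alone.

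RNA came from interscapular brown adipose tissue of C57BL/6J mice aged 16 weeks and from cultured brown preadipocytes of the same strain background at 4 times. The cells had been isolated from the interscapular fat of newborn Pparg-flox/flox mice and immortalized with a retrovirus carrying SV40 large T antigen, and all 4 culture libraries share that genotype and that antigen. Day -3 was labelled proliferating and day 0 confluent. At day 0 insulin, T3, IBMX, dexamethasone and indomethacin were added. Day 2 was labelled immature and day 7 mature adipocytes, kept after day 2 in insulin and T3. How many mice or dishes stand behind a library is not given in the labels. Each time and the tissue had 1 library, so differences cannot be set against a spread between replicates and none was tested. The study also profiled the MED1 protein on chromatin, and those libraries were not analysed here.

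Mediator is the large protein complex that carries signals from DNA-bound transcription factors to RNA polymerase II at promoters. A core of head, middle and tail modules is held together by the MED14 scaffold, and a separable kinase module built on CDK8 or its paralogue CDK19, cyclin C, MED12 and MED13 controls whether the core can meet the polymerase. In fat cells MED1 is known as the subunit that contacts nuclear receptors, among them PPARG and the thyroid hormone receptors. The module of some subunits at the boundary of head and tail differs between descriptions of the complex, and MED27 to MED30 are counted with the tail here.

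The labels of the samples were set against markers. The summed level of 8 adipocyte markers was 62.0, 141, 7015 and 7060 FPKM at days -3, 0, 2 and 7, and 8515 RPKM in the tissue. FPKM and RPKM are levels scaled to the length of the transcript and to the number of mapped fragments or reads. At day 2 Fabp4 and Lpl, at 4811 and 1842 FPKM, made up most of the adipocyte sum. Both were lower at day 7, at 4070 and 1264 FPKM. All other adipocyte markers were higher at day 7 than at day 2, among them Adipoq at 142 and then 590 FPKM. The near equal sums thus do not show equal marker levels at these times. Brown fat markers summed to 3657 RPKM over 8 genes in the tissue and 243 FPKM over the 7 listed at day 7. Ucp1 was at 1015 RPKM in the tissue and 1.22 FPKM at day 7, and it was listed at 0 at days -3 and 0. All 8 skeletal muscle markers were above 1 RPKM in the tissue, with a sum of 1417 RPKM, and of the 2 listed in culture 1 was above 1 FPKM at day 7. All 6 endothelial markers were above 1 RPKM in the tissue as well, with a sum of 162 RPKM, and the 6 matched blood and macrophage markers summed to 115 RPKM. Of these lists 2 endothelial and 2 blood markers were listed in culture, with sums of 8.06 and 5.01 FPKM at day 7. The tissue library thus held RNA marked for several cell types, and in such bulk samples fewer cells of a type and less RNA per cell cannot be told apart. The depth of the culture libraries is unknown. For the tissue, the low values put a single read per kb at about 0.187 RPKM.

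Mediator genes were expressed at moderate levels throughout. Their median was 19.7, 16.4, 16.5 and 16.5 FPKM at days -3, 0, 2 and 7, where all listed genes had medians of 12.2, 13.02, 13.2 and 13.4 FPKM. Within each culture library their levels spanned a wide range, with Med28 the highest and Med20 the lowest in all 4. Med28, a small subunit of the tail, was at 94.8, 76.9, 63.5 and 67.9 FPKM. Med20, a head subunit that pairs with MED18, was at 2.11, 0.572, 0.763 and 0.956 FPKM. By mean over the 4 libraries Med28 was followed by Med15 at 34.0 FPKM and Med12 at 32.3 FPKM, and the low end was held by Med26 at 5.93, Med29 at 3.62 and Med20 at 1.10 FPKM.

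**Figure D1:**
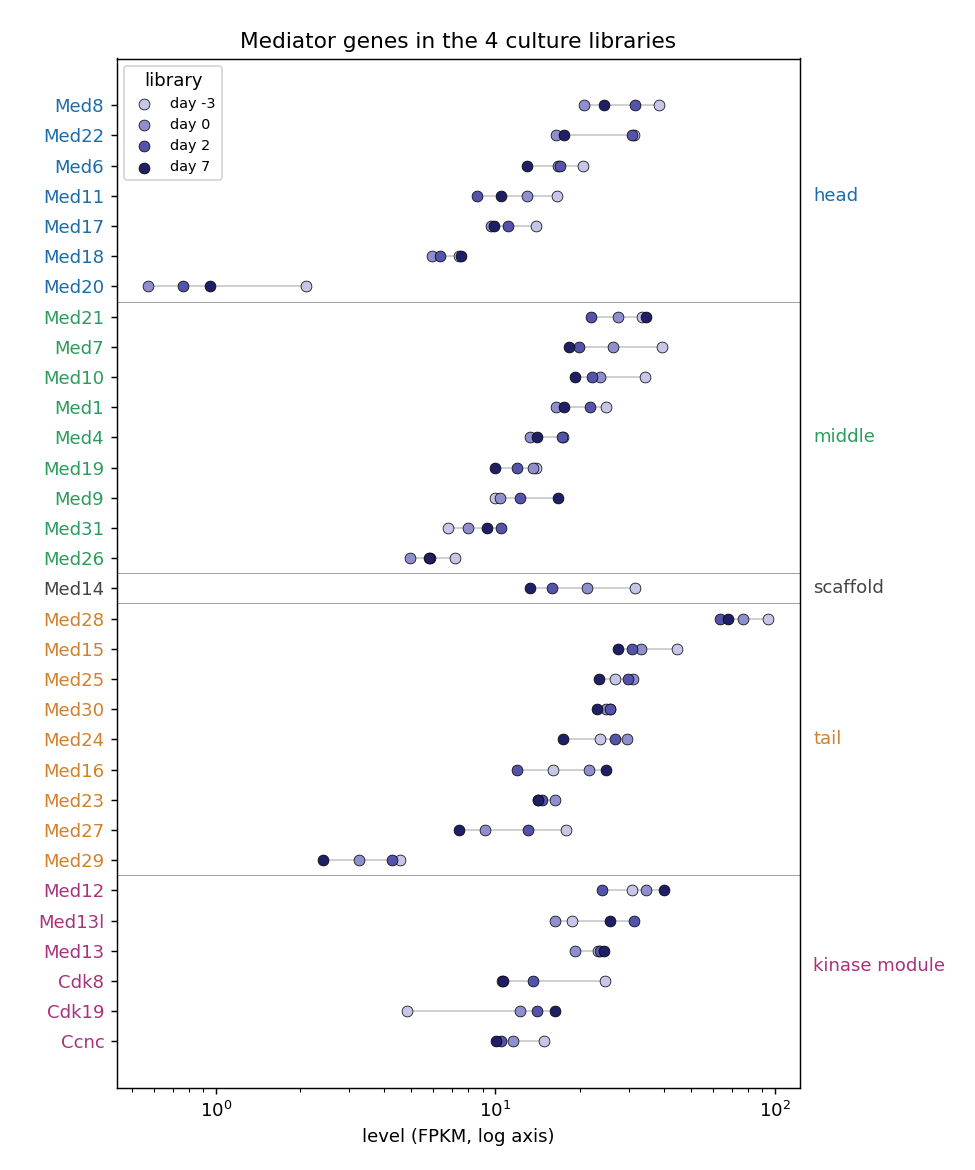
Level of each of the 32 Mediator genes listed in culture (FPKM, log axis), 1 point per library at day -3, day 0, day 2 and day 7, grouped by module; grey lines join the lowest and the highest library of a gene. Most genes stay within a narrow band, Med20 lies at 2.11 FPKM or less, and the order of the times for Cdk19 is the reverse of that for Med14.

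Over time most Mediator genes moved less than the median gene. The range of log2(FPKM + 1) over the 4 libraries had a median of 0.69 for the 32 genes and 0.97 for all genes, and 25 of the 32 lay below that median of all genes. A 2-fold range on this scale was reached by 6 of 32, against 48.4% of all genes: Cdk19, Med14, Med27, Cdk8, Med7 and Med16. At the other end Med30 had a range of 0.15 and stood at 25.7, 24.8, 25.8 and 23.1 FPKM. Med23, a tail subunit contacted by the factor ELK1, had a range of 0.19 and stood at 14.2, 16.3, 14.7 and 14.2 FPKM. Med18 and Med13 followed with 0.30 and 0.33.

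Set end to end, 1 Mediator gene rose and 4 fell by at least 2-fold on the log2(FPKM + 1) scale between day -3 and day 7. Over all 10828 genes compared, 35.0% differed that much, 20.3% upwards and 14.7% downwards. Cdk19 was higher at day 7, and Med14, Med27, Cdk8 and Med7 were lower. With libraries rescaled to a common total Med7 was at -0.93 and no longer past the rule, and with a pseudocount of 5 Med14 was the only one of the 4 still past it, Med7 being at -0.93, Cdk8 at -0.92 and Med27 at -0.89. The median difference, day 7 minus day -3, was -0.45 for the 32 genes and 0.07 for all genes. In 23 of the 32 the day 7 value was below that of day -3, as in 47.4% of all genes; the sign for Med13, Med18, Med21 and Med23 changed under another scaling of the libraries. Day -3 was the highest of the 4 libraries for 19 of 32 Mediator genes and for 28.4% of all genes. With each library rescaled to a common total these were 14 and 19.5%, and with median-ratio factors 23 and 31.8%.

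**Figure D2:**
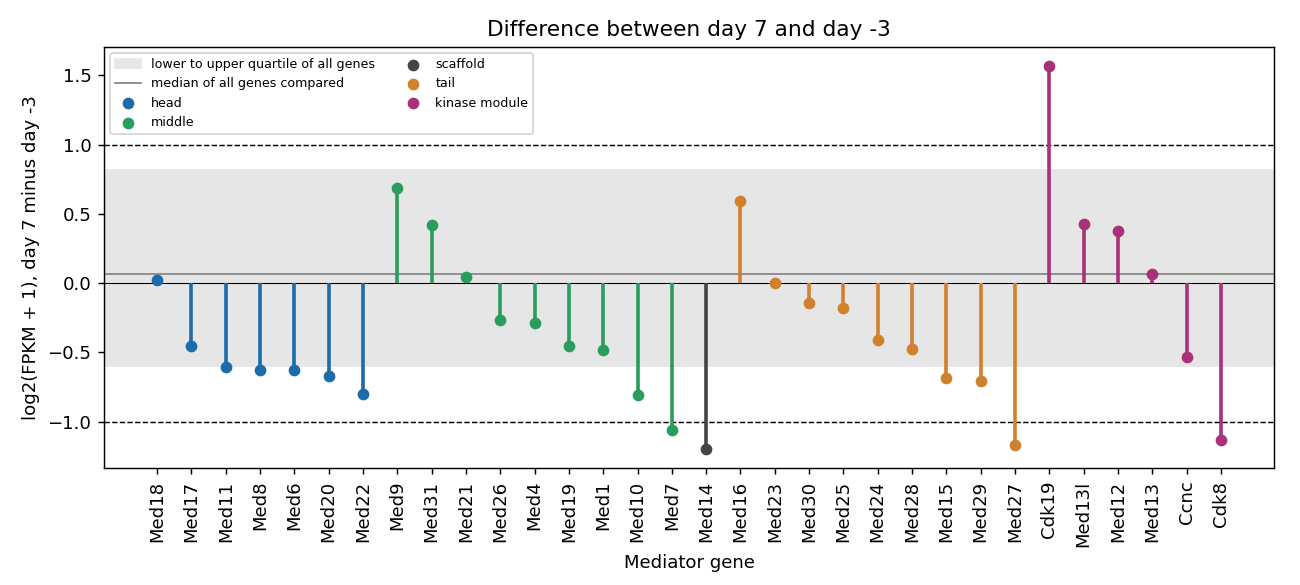
Difference of log2(FPKM + 1), day 7 minus day -3, for the 32 Mediator genes by module; the grey band spans the lower to the upper quartile of all genes compared, the grey line is their median of 0.07, and dashed lines mark 2-fold. Cdk19 alone passes the upper line, at 1.57, and Med7, Med14, Med27 and Cdk8 pass the lower.

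The head module contacts the polymerase. All 7 of its genes were below their day -3 values at day 0, as were 24 of the 32 Mediator genes and 46.4% of all genes. In the head the differences of log2(FPKM + 1) lay between -0.98 and -0.28, so that none passed the 2-fold rule on that scale. The lowest was that of Med20, whose plain FPKM at day 0 was 0.271 times that at day -3, a larger fall than the added 1 FPKM lets the rule show. Med20 exceeded 1 FPKM at day -3 alone, and each listed gene did so in at least 1 library. Its place in the culture tables thus rests on the library where it was highest, and its fall cannot be read apart from that. Med22 was at 31.4, 16.5, 30.8 and 17.5 FPKM, a zigzag with high values at days -3 and 2. Med8, which links the head to the MED18 and MED20 pair, was at 38.4, 20.7, 31.5 and 24.5 FPKM and shared that order of highs and lows. The median head level was 16.6, 13.01, 11.1 and 10.5 FPKM over the times, and the median difference between day 7 and day -3 was -0.63. Med17, the central subunit of the head, was at 14.0, 9.63, 11.1 and 9.92 FPKM. Med11 was lowest at day 2 with 8.57 FPKM, after 16.6 at day -3, and Med6 was lowest at day 7 with 12.9 FPKM, after 20.6 at day -3. Med18 moved least of the 7, between 5.92 FPKM at day 0 and 7.54 at day 7.

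The middle module holds MED1 and the hinge of MED7 and MED21 on which the complex bends. Med1 was at 24.9, 16.5, 21.7 and 17.6 FPKM. It was highest in the proliferating library, and no step reached 2-fold: the log2 differences were -0.57 at day 0 against day -3, 0.38 at day 2 against day 0 and -0.29 at day 7 against day 2. Med7 was at 39.3, 26.3, 19.9 and 18.3 FPKM and was thus lower at each step, with a net log2 difference of -1.06. Its partner Med21 was at 33.4, 27.5, 22.0 and 34.5 FPKM and stood at day 7 close to where it was at day -3. Med10 and Med19 were also lower at each step, Med10 at 34.3 and later 19.2 FPKM and Med19 at 14.0 and later 9.95 FPKM at the first and last times. Rescaling the libraries to a common total turned the sign of the first step of Med19. Med9 and Med31 stood apart from these. Med9 was higher at each step, with 9.98, 10.4, 12.3 and 16.7 FPKM, though with median-ratio factors its first step turned in sign, and Med31 was at 6.75, 8.01, 10.5 and 9.34 FPKM. Med4 lay between 13.3 and 17.4 FPKM, and Med26, whose product recruits elongation factors, between 4.94 and 7.18 FPKM.

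Med14 encodes the scaffold that runs through the head, middle and tail. It was at 31.7, 21.3, 16.0 and 13.3 FPKM, lower at each of the 3 steps, and its net log2 difference was -1.20. That was the lowest of the 32 genes with 1 FPKM added, whereas in plain FPKM the ratio of day 7 to day -3 was lower for Med27, 0.413, than for Med14, 0.418. Of all Mediator genes 6 were lower at each step, against 10.8% of all genes, and 2 were higher at each step, against 13.5%.

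Tail subunits are the usual landing sites of transcription factors. The module had a median of 23.6, 24.8, 25.8 and 23.1 FPKM and held both the most stable genes and some that moved. Med27 was at 18.0, 9.20, 13.1 and 7.41 FPKM, with high values at days -3 and 2 like Med22 and Med8 of the head, and a net log2 difference of -1.17. Med16 was at 16.1, 21.6, 11.9 and 24.8 FPKM, with its high values at days 0 and 7. Its log2 difference of 1.00 between day 7 and day 2 lay just past the 2-fold rule and fell short of it under both other scalings of the libraries. Med15, whose product binds the lipid regulators of the SREBP family, was at 44.7, 33.1, 30.7 and 27.4 FPKM. Srebf1, the gene of one such regulator, was at 50.9, 73.5, 164 and 622 FPKM in the same libraries. Med24 was highest at day 0 with 29.7 FPKM and lowest at day 7 with 17.5. Med25 lay between 23.5 and 30.9 FPKM and Med29 between 2.41 and 4.57 FPKM.

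In the kinase module the levels of the alternative kinases crossed. On the log2(FPKM + 1) scale Cdk19 had the widest range of the 32 genes, 1.57, while in plain FPKM that of Med20 was wider, with its highest value 3.69 times its lowest against 3.37 times for Cdk19. Of the Med20 values, that at day -3 alone exceeded 1 FPKM, as each listed gene did in at least 1 library. In order of time, the level of Cdk8 was 24.6, 10.6, 13.6 and 10.7 FPKM. That of Cdk19 was 4.83, 12.2, 14.0 and 16.3 FPKM. The day -3 library was thus the high one for Cdk8 and the low one for Cdk19, with the other 3 libraries close together. At day 0 against day -3 the log2 difference was -1.14 for Cdk8 and 1.18 for Cdk19, and between day 7 and day -3 it was -1.13 and 1.57. Cdk8 made up 83.6%, 46.5%, 49.3% and 39.6% of the summed level of both genes over the 4 times. The sum itself stayed between 22.8 and 29.4 FPKM. Ccnc, which encodes the cyclin that both kinases need, was at 14.9, 11.6, 10.5 and 10.0 FPKM, lower at each step and within 2-fold. The sources used here do not state how reads were divided between genes of similar sequence, such as these paralogues.

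The large subunits of the kinase module showed no such crossing at the first step. Med12, whose product switches on the kinase, was at 30.7, 34.4, 24.1 and 40.1 FPKM, lowest at day 2 and highest at day 7. Med13, which ties the module to the core, was at 23.3, 19.2, 23.6 and 24.5 FPKM. Its paralogue Med13l was at 18.8, 16.4, 31.2 and 25.7 FPKM and had the largest log2 difference of the complex at day 2 against day 0, 0.89. Med13 made up 55.3%, 54.0%, 43.0% and 48.8% of the sum of both over the 4 times, so that Med13l was the higher at days 2 and 7. At day 0 the sign of Med13l against day -3 changed when libraries were rescaled to a common total.

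**Figure D3:**
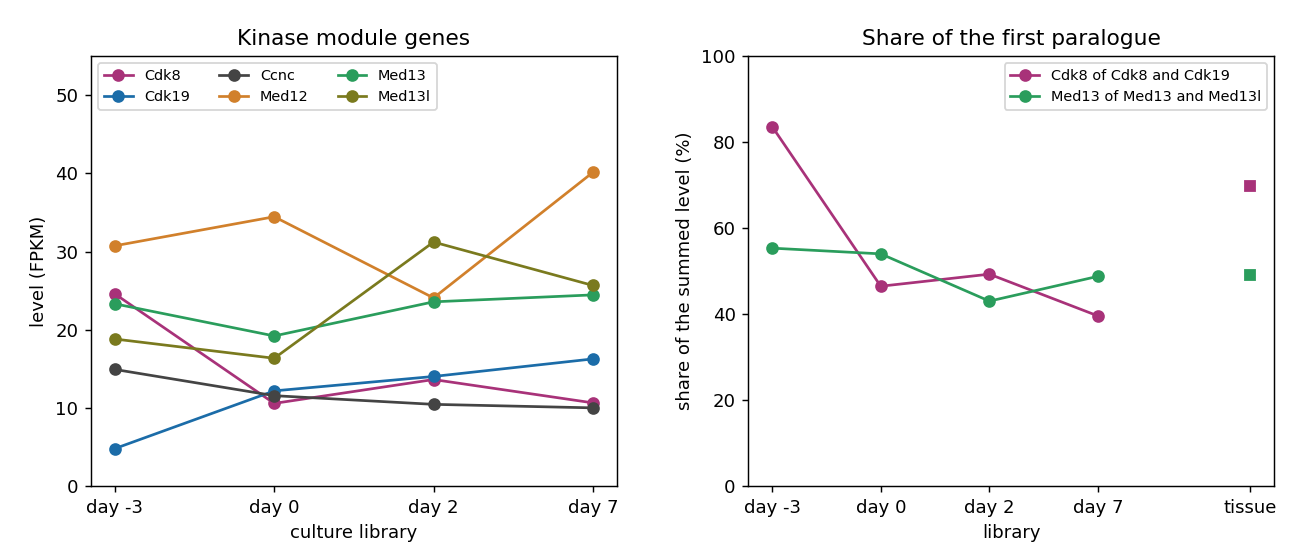
Left, levels of 6 kinase module genes (FPKM) in the culture libraries at day -3, day 0, day 2 and day 7; right, share of the summed level of a paralogue pair held by its first gene (%), with the tissue (computed from RPKM, highest transcript of each gene) as squares. Cdk8 and Cdk19 cross between day -3 and day 0, the share of Cdk8 being 83.6% at day -3 and 46.5% at day 0. The share of Med13 lies between 43.0% and 55.3%, and Med13 and Med13l cross between day 0 and day 2.

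Promoter sequence was looked at for Cdk8, Med14, Med7 and Med27, the genes past the 2-fold rule downwards from day -3 to day 7. They were 4 of 32, and 14.7% of all genes fell that much, so their number does not set the complex apart. Their courses differed as well. Med7 and Med14 declined at each step, whereas Cdk8 and Med27 stood above their day 0 values at day 2. The 250 bases before the annotated start are printed 5′ to 3′ on the gene's strand, from RefSeq on GRCm38.p6, another build than the mm9 of the deposited files. Where RefSeq gives more than 1 start, as for Med7 and Med27, the first listed is shown. Capitals mark matches on either strand to 6 motifs: the GC box GGGCGG, the CCAAT box CCAAT, the TATA box TATAAA, the E-box CACGTG, the ETS motif CCGGAAG and the C/EBP type motif TTGCNNAA. A match describes these letters and is not a binding site.
Cdk8, chr5:146231000-146231249, plus strand: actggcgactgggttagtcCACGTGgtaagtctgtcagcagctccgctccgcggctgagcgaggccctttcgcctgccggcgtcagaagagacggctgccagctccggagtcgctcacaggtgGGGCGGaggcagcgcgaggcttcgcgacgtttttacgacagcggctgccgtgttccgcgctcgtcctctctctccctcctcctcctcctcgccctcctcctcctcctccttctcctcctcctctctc
Med14, chrX:12761974-12762223, minus strand: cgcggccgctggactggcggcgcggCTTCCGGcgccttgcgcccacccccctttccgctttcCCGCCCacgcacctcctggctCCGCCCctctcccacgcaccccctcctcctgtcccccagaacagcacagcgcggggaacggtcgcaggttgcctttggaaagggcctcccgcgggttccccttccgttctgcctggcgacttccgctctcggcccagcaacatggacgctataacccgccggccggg
Med7, chr11:46436697-46436946, plus strand: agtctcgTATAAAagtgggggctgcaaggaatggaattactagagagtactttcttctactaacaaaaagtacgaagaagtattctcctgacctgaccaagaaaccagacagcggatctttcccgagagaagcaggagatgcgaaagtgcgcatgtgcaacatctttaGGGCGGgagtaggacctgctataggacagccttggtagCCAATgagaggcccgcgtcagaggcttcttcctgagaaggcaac
Med27, chr2:29346560-29346809, plus strand: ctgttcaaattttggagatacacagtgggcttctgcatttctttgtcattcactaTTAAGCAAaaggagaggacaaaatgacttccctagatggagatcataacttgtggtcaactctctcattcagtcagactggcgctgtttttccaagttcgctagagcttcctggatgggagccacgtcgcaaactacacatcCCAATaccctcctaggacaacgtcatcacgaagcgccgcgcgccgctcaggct
These 4 windows share no single motif: the GC box is in those of Cdk8, Med14 and Med7, and the CCAAT box in those of Med7 and Med27. The sequence table matched 28 Mediator genes with 32 windows. A GC box was in 20 of the 32 windows, against 32.7% of all 32851 windows, and the CCAAT box in 12, against 33.8%. The ETS motif was in 6 and 6.91%, the TATA box in 3 and 12.4%, the E-box in 2 and 6.02%, and the C/EBP type motif in 1 and 9.56%. The median GC content was 56.0% for the Mediator windows and 52.4% for all windows, and whether it bears on the motif counts was not tested.

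The first step, between proliferating and confluent cells, had the widest shift of the complex's median in the values as deposited. At day 0 against day -3 the median log2 difference of the 32 genes was -0.31, against 0.06 for all 10602 genes compared. Cdk19 rose and Cdk8 fell by 2-fold, and 16.8% of all genes differed that much, 11.3% upwards and 5.43% downwards. In 24 of 32 genes the day 0 value was below that of day -3, as in 46.4% of all genes. Med20 lay just short of the rule with a log2 difference of -0.98. Rescaling each library to a common total moved the median of all genes to 0.25 and that of the Mediator genes to -0.11. The gap between the medians was -0.36 then and -0.38 as deposited. In that rescaling the Mediator median at day 7 against day 2 was -0.25, and so further from 0 than at the first step. With that rescaling Cdk8 was at -0.94, and with a pseudocount of 5 both kinases were within 2-fold, Cdk8 at -0.92 and Cdk19 at 0.81.

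At day 2 against day 0, across induction, 0 of 31 Mediator genes compared differed by 2-fold, where 16.9% of all 10717 genes did, 6.18% upwards and 10.7% downwards. The median was 0.05 for the Mediator genes and -0.01 for all genes. Of the Mediator genes 17 were above 0 and 14 below, where 50.9% of all genes were below. The extremes were Med13l at 0.89, Med22 at 0.86 and Med16 at -0.81. At day 7 against day 2 the medians were -0.15 and 0.02. In 22 of 31 Mediator genes the value was below that of day 2, as in 48.6% of all genes. Med16 at 1.00 was the only Mediator gene past the 2-fold rule in this pair of libraries, where 14.8% of 10666 genes passed it, 9.62% upwards and 5.14% downwards. Med12 at 0.71 and Med21 at 0.62 came next, and Med22 at -0.78 and Med27 at -0.74 were lowest. Med20 was under 1 FPKM in both libraries of these steps and was not compared.

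Genes of the surrounding machinery were set beside these counts, where 20.3% of all genes rose and 14.7% fell between day -3 and day 7 with a median of 0.07. Of 12 RNA polymerase II subunit genes 0 rose and 2 fell between day -3 and day 7, with a median log2 difference of -0.59. Polr2b, which encodes the second largest subunit, was at 14.5, 16.2, 1.77 and 2.23 FPKM, and Polr2h at 14.5, 6.13, 6.47 and 5.84 FPKM. Of 31 general transcription factor genes 1 rose and 4 fell, with a median of -0.21. Taf7 was the one that rose, at 2.30, 2.62, 4.55 and 7.71 FPKM. Gtf2f2, a subunit of TFIIF, fell the most, at 20.4, 8.38, 12.4 and 7.08 FPKM, followed by Taf9 at 40.0, 16.3, 22.0 and 15.4 FPKM. Among 20 genes of pause release and elongation 1 rose and 1 fell, with a median of 0.00. Hexim1, an inhibitor of the elongation kinase, was at 8.46, 10.7, 23.1 and 22.9 FPKM, and Mllt1 at 41.4, 29.9, 23.3 and 9.49 FPKM.

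Of 12 listed genes of transcription factors that contact Mediator, 7 rose and 1 fell between day -3 and day 7. Their median log2 difference was 1.31, beside the 20.3% and 14.7% of all genes and their median of 0.07. This list was chosen with earlier results of these data known. Its counts describe the genes picked and not the factors that contact Mediator in general. Cebpa, Pparg and Srebf1 had the largest differences, 6.80, 3.38 and 3.59. Pparg, the partner of MED1, was at 16.8, 7.46, 47.1 and 185 FPKM. Thra, a thyroid hormone receptor gene, was at 15.8, 62.6, 60.8 and 75.8 FPKM. Vdr, the vitamin D receptor gene, was the one that fell, at 9.10, 10.2, 22.4 and 2.70 FPKM.

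In brown adipose tissue the 32 matched Mediator genes had a median of 5.37 RPKM, from Med18 at 0.892 to Med21 at 12.2 RPKM. Culture and tissue tables were made separately, so genes were compared by percentile rank within each library, over the 10464 genes listed in both that reached 1 in the tissue or at day 7. The median Mediator rank was 52.1 in the tissue and 54.5 at day 7, and the median difference, tissue minus day 7, was -2.06 points. A difference of at least 20 points was counted for 1 gene upwards and 5 downwards. Of all genes ranked 28.9% differed that much, 14.5% upwards and 14.4% downwards.

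Med20 was the gene past the limit of 20 points upwards, among 12 of 31 that ranked higher in the tissue. It was at 8.06 RPKM there and at 0.956 FPKM at day 7, with ranks of 64.4 and 1.36. Being under 1 FPKM at day 7, Med20 entered the ranking through its tissue value alone. A gene that enters so ranks near the bottom at day 7 by construction. Med28 ranked lowest relative to culture, at 4.71 RPKM in the tissue and 67.9 FPKM at day 7, with ranks of 48.0 and 90.8. These were the lowest and the highest Mediator genes of the culture. Among the 32 Mediator genes of the tissue Med20 was the 4th from the highest, at 1.5 times their median, and Med28 the 18th, at 0.876 times it. Another protein-coding gene overlaps the span of Med20 in RefSeq, and whether the tables counted their reads alike was not tested. Med16, Med12, Cdk19 and Med7 were the others, with rank differences of -21.9, -21.3, -20.6 and -20.01 points, the last just past the limit. With the transcripts of a gene summed instead of the highest taken, Med7 was at 13.6, Med16 at -6.71 and Cdk19 at -5.47. Summing raises genes listed with several transcripts by construction. On the upper side Med20 was followed by Cdk8 at 18.3 points and Med19 at 14.7, both within the limit. Muscle, endothelial and blood markers were in the tissue beside these values, and their part in the differences was not tested.

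**Figure D4:**
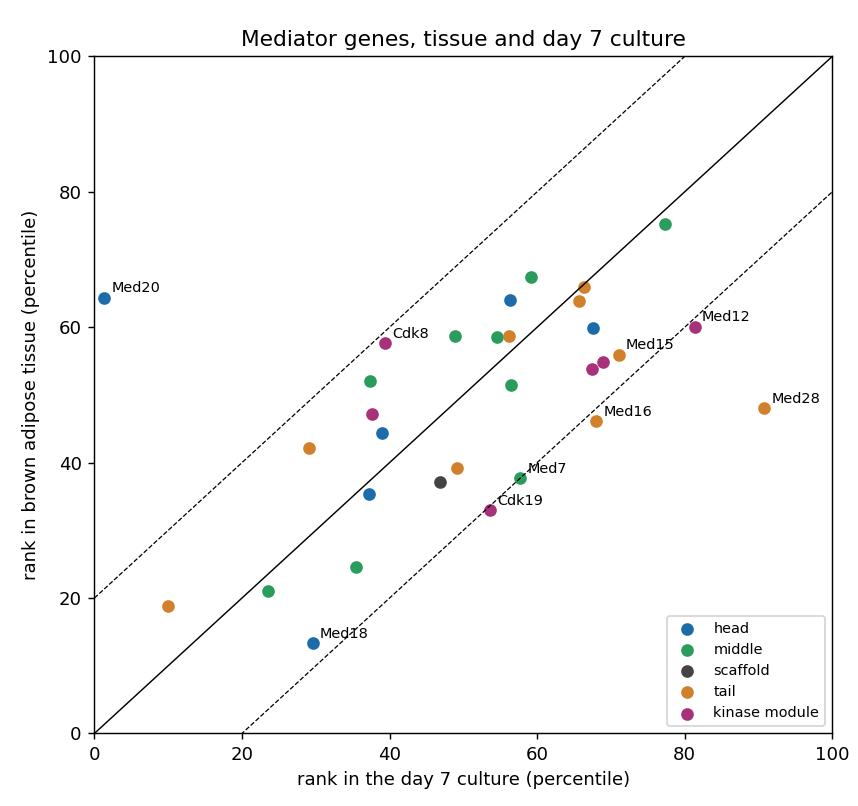
Percentile rank of 31 Mediator genes in brown adipose tissue (vertical) against that in the day 7 culture (horizontal), coloured by module, with dashed lines 20 points either side of equal ranks. Most genes lie between the dashed lines, with a median absolute rank difference of 9.88 points, against 11.3 for all genes ranked. Med20 lies far above the line of equal ranks at 64.4 and 1.36, and Med28 far below it at 48.0 and 90.8.

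Cdk8 was at 6.51 RPKM and Cdk19 at 2.83 RPKM in the tissue by the highest transcript, so that Cdk8 made up 69.7% of the pair there. Cdk19 is listed with 2 transcripts of equal value, and with these summed the share of Cdk8 was 53.5%. In the day 7 culture it was 39.6%, in a table made separately, so the shares stand side by side and their distance depends on the transcript summary. Tissue minus day 7, the rank difference was 18.3 points for Cdk8, within the limit, and -20.6 points for Cdk19, past it. That of Cdk19 was -5.47 with summed transcripts and -19.6 when all genes in both tables were ranked, within the limit in both cases. Med13 made up 49.2% of its pair in the tissue and 48.8% at day 7. Med12l, the paralogue of Med12, was at 2.66 RPKM beside Med12 at 7.04 RPKM. Its absence from the culture tables cannot be taken as a low level, since the reason for a gene missing there is not stated in any source used. Med1 was at 5.30 RPKM in the tissue by its highest transcript with a rank difference to day 7 of -5.03 points. The order of the 31 genes by level in the tissue was set against that of the culture libraries, with Spearman's rho of 0.50, 0.51, 0.57 and 0.53 for days -3, 0, 2 and 7. Over all 10464 genes ranked it was 0.44, 0.47, 0.57 and 0.68. Between culture libraries rho lay between 0.75 and 0.88 over the 32 genes. These are descriptions over genes of 1 complex measured in the same libraries.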

How the data were processed

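The culture values are FPKM per gene symbol, as the authors deposited them, and each listed gene exceeded 1 FPKM in at least 1 library. The tissue values are RPKM per RefSeq transcript, as deposited. RNA was selected as mRNA, per the labels' protocols. Per the submitters' processing notes, Cufflinks 1.0.3 and TopHat2 2.0.10 were used for culture beside SICER, CASAVA 1.8.2 for both, and build mm9. No source used here states the annotation, strand or counting.

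Differences are of log2(FPKM + 1), which understates those of low genes. A gene was called at 2-fold when its larger value was at least 1 FPKM. These are size rules for 2 libraries, not tests. Tissue accessions were matched to symbols in a RefSeq table of GRCm38.p6 (28436 of 29082, 97.8%), taking the highest transcript, and 1067 older culture symbols were updated for that join. At most 4.65% of low culture genes shared 1 ratio between libraries, so depth was not recovered. For the tissue, 30 of 30 chemosensory receptor transcripts gave whole reads within 0.01. Analysis used Python 3.11.15, pandas 2.3.3, numpy 2.4.6, scipy 1.17.1 and matplotlib 3.10.9. The size rule and ranks were run on simulated data, with changes well beyond 2-fold planted in genes that were not low. That check does not cover low genes, genes near a limit or ranks between tables made separately. Genes given in full were those past a rule, Med1, the kinase module and the extremes of range, level and rank. The members and lists were chosen with earlier results of these data known. The alternatives were other pseudocounts, filters, scalings, thresholds and transcript summaries.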

Additional observations from a re-analysis of the deposited data

How the results depend on the processing

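With 1 library per time, differences cannot be set against a spread, and depth limits low genes such as Med20 most. No paired analysis was possible because each group had 1 library. With a size rule of 1.5-fold the counts of Mediator genes higher and lower were 1 and 5 at day 0 against day -3, 2 and 1 at day 2 against day 0, 3 and 4 at day 7 against day 2, and 3 and 12 at day 7 against day -3, where 38.0%, 35.6%, 33.0% and 57.2% of all genes passed. With a pseudocount of 5, 0 were higher and 0 lower at day 0 against day -3, and 0 were higher at day 7 against day 2. At day 7 against day -3, 1 was lower with a median of -0.35. Of all genes 7.48%, 7.59% and 21.0% passed either way in these comparisons. With a pseudocount of 0.1, 2 were lower at day 0 against day -3, where 22.8% of all genes passed either way. With libraries rescaled to a common total, 0 were lower at day 0 against day -3 with a median of -0.11, and 0 were higher at day 7 against day 2. At day 7 against day -3, 3 were lower, without Med7, with a median of -0.33. Of all genes 18.5%, 14.7% and 35.5% passed either way in that rescaling. All genes then split 80.6% upwards among those called at day 0 against day -3, against 67.6% as deposited. With median-ratio factors, 2 were lower at day 0 against day -3 and 0 higher at day 7 against day 2, where 16.6% and 14.6% of all genes passed. Between tissue and day 7, summing transcripts gave 2 higher and 2 lower, with Med7 reversed at 13.6 points, where 31.1% of all genes passed. Ranking all genes in both tables gave 3 lower, where 26.3% of all genes passed either way. A limit of 10 points gave 4 higher and 10 lower, where 54.0% of all genes passed. Summing also put the share of Cdk8 in its pair at 53.5% in the tissue, against 69.7% by the highest transcript, an alternative chosen after seeing the data. Of 72 values of called genes under an alternative, 57 stayed past the limit, 14 were within it and 1 reversed. These include the looser limits of 1.5-fold and 10 points and the culture setting without a filter on low values. A called gene stays past the limit in those by construction, so the 57 are not a measure of how firm the calls are.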

Other observations

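Of the 33 Mediator genes 8 overlap the span of another protein-coding gene in RefSeq on GRCm38.p6, and no source used here states how reads on such spans were counted. Cdk19 is among them, and the gene on its span, Gm32234, was matched to no value used here. Rasd1, which overlaps Med9, was at 0.124, 0.222, 0.425 and 7.70 FPKM at days -3, 0, 2 and 7, highest at day 7 like Med9. Tmx2 and Zdhhc5 overlap Med19. Tmx2 was at 6.02, 6.87, 15.3 and 13.2 FPKM and Zdhhc5 at 51.8, 37.5, 44.1 and 29.4 FPKM, and neither was lower at each step as Med19 was. Tstd3, which overlaps Ccnc, was at 13.7 RPKM in the tissue and 3.40 FPKM at day 7, while Ccnc was at 4.58 RPKM and 10.0 FPKM. Whether shared reads bear on these members was not tested.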
